A study of Mus musculus with 18 samples.

Results

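Fc gamma receptors and TREM receptors were described by 10 genes, Fcgr1, Fcgr2b, Fcgr3, Fcgr4, Fcer1g, Trem1, Trem3, Treml2, Treml4 and Tyrobp. They were chosen by name as members of both families with their shared adaptors, out of 19938 genes read by probe sets of 1 gene symbol. Each was read by 1 probe set, and all 10 passed the filter on dim genes and were tested. The arrays held total RNA of Ly-6C(hi) monocytes and neutrophils sorted from the bone marrow of C57BL/6 mice. Each cell type had 4 arrays labelled Zeb2-deficient, from Zeb2(fl/fl);Mx1-Cre(tg) mice given poly(I:C), 4 poly(I:C) controls from Zeb2(fl/fl) mice and 1 array of an untreated Zeb2(fl/fl) mouse, 18 arrays in all. Poly(I:C), which mimics viral double-stranded RNA and induces interferon, was injected intraperitoneally at 150 µg, 2 times within 48 h, with cells sorted from marrow 3 weeks later. All groups carried the floxed alleles and only the labelled deficient mice carried Cre, which interferon switches on from the Mx1 promoter in many tissues, so Cre and the loss of Zeb2 cannot be told apart. The labels give no ages and leave it unstated whether different arrays stand for different mice, so the p-values cover only the scatter among these arrays, part of which may be technical.

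Fc gamma receptors bind the constant part of IgG and let myeloid cells take up or kill antibody-coated targets. The activating ones signal through the gamma chain encoded by Fcer1g, which carries an ITAM, a pair of tyrosines that recruits the kinase Syk once phosphorylated, whereas Fcgr2b carries an inhibitory ITIM of its own. TREM receptors are immunoglobulin-like receptors encoded in a cluster, and Trem1 and Trem3 pair with the second ITAM adaptor, DAP12, encoded by Tyrobp.

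In RefSeq's GRCm38.p6 annotation Fcgr2b, Fcgr4 and Fcgr3 are consecutive coding genes on chromosome 1, where Fcer1g also lies, and Fcgr1 is on chromosome 3. Trem1, Trem3, Treml4 and Treml2 are consecutive coding genes on chromosome 17, and Tyrobp on chromosome 7 stands beside Hcst, which encodes the related adaptor DAP10. RefSeq's promoter table matched 7 of the 10 members. The windows run from 250 bases before the start site to 50 after it. Those of Trem1, called in monocytes, of Fcgr1, high in monocytes and dim in neutrophils, and of the neighbours Fcgr2b and Fcgr4, whose levels ran opposite ways between the cell types, read as follows from 5′ to 3′ on the gene's strand.
Trem1, chr17:48232489-48232788, + strand: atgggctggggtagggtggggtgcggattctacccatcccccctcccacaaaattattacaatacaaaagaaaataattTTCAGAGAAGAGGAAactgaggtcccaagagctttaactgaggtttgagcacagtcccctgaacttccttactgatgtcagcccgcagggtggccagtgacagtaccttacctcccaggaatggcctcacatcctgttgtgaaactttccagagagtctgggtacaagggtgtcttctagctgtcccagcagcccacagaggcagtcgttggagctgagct
Fcgr1, chr3:96293920-96294219, - strand: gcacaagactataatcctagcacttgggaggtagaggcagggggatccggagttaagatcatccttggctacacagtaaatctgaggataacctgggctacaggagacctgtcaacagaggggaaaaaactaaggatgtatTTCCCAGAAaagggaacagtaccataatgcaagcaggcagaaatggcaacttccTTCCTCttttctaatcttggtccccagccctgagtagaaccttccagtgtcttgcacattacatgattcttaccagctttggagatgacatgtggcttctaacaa
Fcgr2b, chr1:170976022-170976321, - strand: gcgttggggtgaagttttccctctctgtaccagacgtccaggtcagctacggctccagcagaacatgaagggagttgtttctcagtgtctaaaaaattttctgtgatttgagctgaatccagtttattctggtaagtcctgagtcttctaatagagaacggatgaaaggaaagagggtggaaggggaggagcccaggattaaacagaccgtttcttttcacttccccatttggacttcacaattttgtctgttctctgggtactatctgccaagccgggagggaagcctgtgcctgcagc
Fcgr4, chr1:171018676-171018975, + strand: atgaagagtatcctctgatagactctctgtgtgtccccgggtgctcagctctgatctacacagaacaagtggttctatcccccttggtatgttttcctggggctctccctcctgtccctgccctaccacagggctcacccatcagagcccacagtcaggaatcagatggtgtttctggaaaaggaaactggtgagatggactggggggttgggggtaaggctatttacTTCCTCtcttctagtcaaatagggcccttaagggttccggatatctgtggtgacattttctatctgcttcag
Capitals mark matches on either strand to the core of the PU.1 site (GAGGAA) and to the GAS core that STAT factors bind (TTCNNNGAA). The windows were also searched for the E-box that Zeb factors bind (CACCTG) and for a C/EBP core (TTGCNNAA). A PU.1 core stood in the windows of Trem1, Fcgr1 and Fcgr4 and in 28.28% of all 32851 windows in the table. A GAS core stood in those of Trem1 and Fcgr1 and in 8.3% of all windows. In Trem1 the GAS and PU.1 matches were adjacent, starting at -171 and -162 from the start site, without overlap. The E-box and the C/EBP core, present in 20.21% and 10.8% of all windows, had no match in these 4 windows. Among the members' windows not printed, those of Fcgr3 and Treml4 held a PU.1 core and that of Fcer1g held no match. Those of Fcgr3 also held a C/EBP core, and no member's window held the E-box. A match is a stretch of letters and not a measured binding site.

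Values below are log2 intensities summarised by RMA, and a difference of 1 is a 2-fold difference. Levels are set only between arrays for the same gene, since probe sets differ in brightness. A gene was tested if it exceeded the 40th percentile of the array, 4.28 to 4.50 over the 18 arrays, on at least 4 of them, which left 13387 genes. A change was called when limma's adjusted p, by Benjamini-Hochberg over all 13387 genes, was under 0.05. The samples are listed in 2 runs, called array sets A and B here, whose arrays deviated together from their group means, and values within each set are given beside the pooled ones. Set A held the monocyte and neutrophil arrays 1 and 2 of each genotype with both untreated arrays, and set B the rest. Zeb2 read 8.74 to 9.84 in monocytes labelled deficient against 9.86 to 10.08 in control monocytes, and 7.10 to 8.25 in neutrophils labelled deficient against 6.86 to 7.54 in control neutrophils. The untreated arrays read 9.75 in monocytes, within the range of the labelled deficient arrays, and 6.66 in neutrophils. The probe set covers the whole transcript and the position of the deletion is not stated, so these levels do not check it, and in neutrophils they ran against the label. Sort markers followed the labels in the controls: all 16 mature neutrophil markers tested were lower and 11 of 12 Ly-6C(hi) monocyte markers higher in control monocytes than in control neutrophils.

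**Figure D1:**
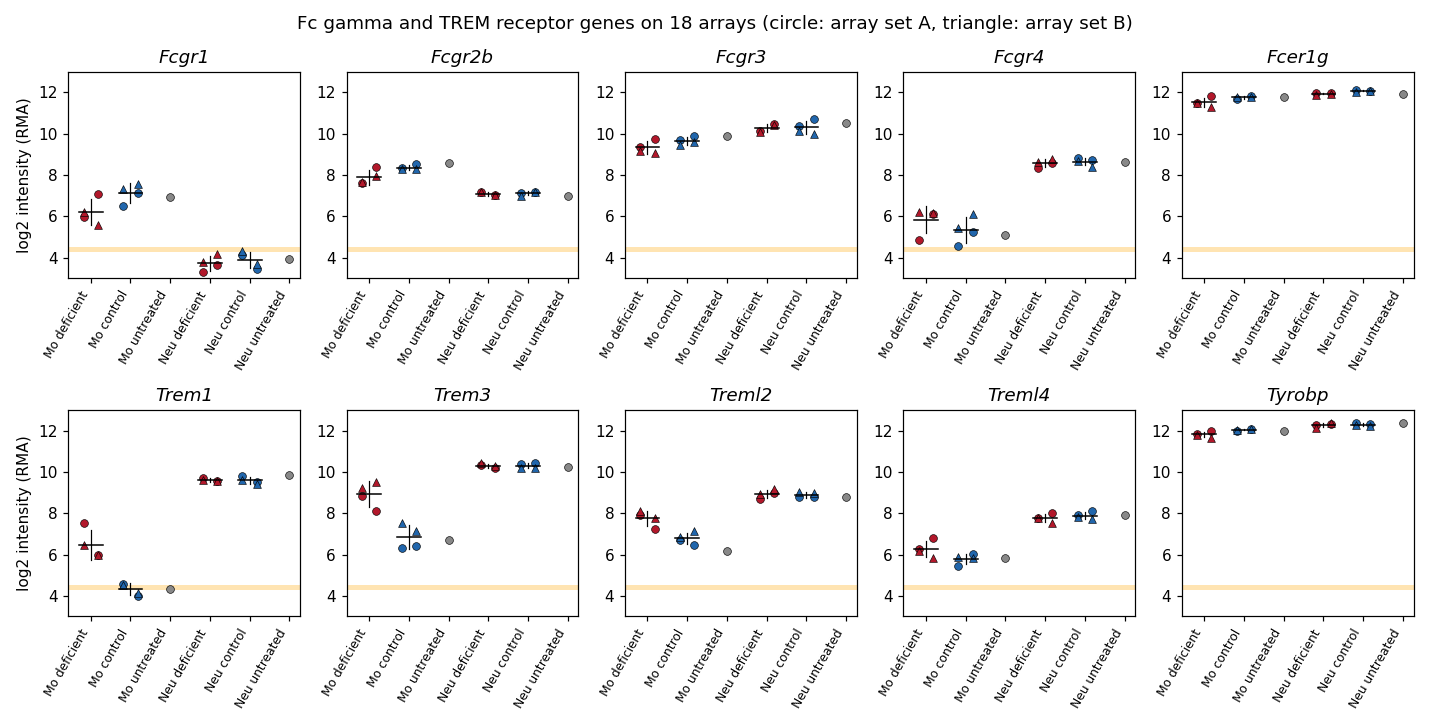
Log2 intensity of the 10 genes on each array (y axis) by group (x axis; Mo, Ly-6C(hi) monocytes, Neu, neutrophils), with horizontal bars at the mean and vertical bars of 1 SD for groups of 4 arrays and the 40th percentiles of the arrays as a band. Trem1, Trem3 and Treml2 lie higher in monocytes labelled deficient than in control monocytes with no overlap, whereas the neutrophil groups lie level, and Fcgr1 lies below the 40th percentile on all 9 neutrophil arrays.

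In monocytes labelled Zeb2-deficient, 3 TREM genes rose, Trem1 by 4.48-fold, Trem3 by 4.21-fold and Treml2 by 1.94-fold, and none of the 10 genes fell at the threshold. The fold of Trem1 is against control monocytes in which only 2 of 4 arrays exceeded the 40th percentile. Among all genes tested 5.11% rose and 2.44% fell. The median of the 10 differences was 0.12, and the median of all genes was -0.03. The arrays did not overlap for Trem1, Trem3 and Treml2, which lay above the controls, and for Tyrobp, which lay below. Among all genes tested 6.12% lay wholly above and 3.92% wholly below.

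Trem1, an amplifier of inflammatory responses in neutrophils and monocytes, read 7.51, 5.97, 6.46 and 5.97 in monocytes labelled deficient, against 4.59, 4.0, 4.54 and 4.13 in control monocytes. Every labelled deficient array lay above every control. The difference was 2.16 ± 0.25 (SE, n = 4 each; adjusted p = 2.49e-05 by limma), or 2.44 within set A and 1.88 within set B.

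Trem3, an activating receptor that is a functional gene in mice, read 8.85, 8.09, 9.25 and 9.53 in monocytes labelled deficient, against 6.31, 6.43, 7.52 and 7.16 in control monocytes. The lowest labelled deficient array was array 2, and the control arrays of set B stood above those of set A. The difference was 2.07 ± 0.26 (SE, n = 4 each; adjusted p = 7.55e-05 by limma), with 2.10 in set A and 2.04 in set B. Trem1 and Trem3 are related in sequence, and signal shared between their probe sets was not tested.

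Treml2, a TREM-like receptor found on neutrophils, macrophages and B cells, read 7.93, 7.23, 8.09 and 7.77 in monocytes labelled deficient, against 6.71, 6.48, 6.87 and 7.12 in control monocytes. The groups were separated by a narrow gap, between labelled deficient array 2 and control array 5. The difference was 0.96 ± 0.17 (SE, n = 4 each; adjusted p = 0.00171 by limma), with 0.99 in set A and 0.93 in set B. For Trem1, Trem3 and Treml2 an exact permutation test over the 8 arrays gave two-sided p = 0.0286, the smallest that 4 against 4 arrays can give. Tyrobp, which lay lower, had the same value.

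Treml4, a receptor of Ly-6C(low) monocytes and some dendritic cells, read 6.25, 6.80, 6.17 and 5.84 in monocytes labelled deficient, against 5.47, 6.03, 5.86 and 5.82 in control monocytes. The groups overlapped. The difference of 0.47 ± 0.18 (SE, n = 4 each) did not pass (adjusted p = 0.121 by limma), or 0.78 within set A and 0.16 within set B. It passed only without labelled deficient array 4, at 0.61 (adjusted p = 0.0470 by limma).

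Among the Fc gamma receptors no difference passed in monocytes, and the 3 members Fcgr1, Fcgr2b and Fcgr3 had values below 0. Fcgr1, the high-affinity receptor for IgG2a, read 5.98, 7.09, 6.21 and 5.60 in monocytes labelled deficient, against 6.48, 7.14, 7.33 and 7.58 in control monocytes. Labelled deficient array 2 lay within the control range and the other 3 lay below it. The difference was -0.91 ± 0.29 (SE, n = 4 each; adjusted p = 0.0622 by limma), with -0.27 in set A and -1.55 in set B. It passed in 6 of 21 alternative fits by limma. These were set B alone (adjusted p = 0.00192), an array set block (adjusted p = 0.0449) and quantile normalization (-0.99, adjusted p = 0.0457). The others were array weights (-0.94, adjusted p = 0.0246) and the fits without labelled deficient array 2 (-1.20, adjusted p = 0.00337) or control array 1 (-1.13, adjusted p = 0.0270). It did not pass with the replicate number as a block (adjusted p = 0.126) or in set A alone (adjusted p = 0.904).

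Fcgr2b, the inhibitory member, read 7.62, 8.39, 7.64 and 7.93 in monocytes labelled deficient, against 8.32, 8.55, 8.28 and 8.27 in control monocytes. Here too array 2 alone of the labelled deficient arrays lay within the control range. The difference was -0.46 ± 0.14 (SE, n = 4 each; adjusted p = 0.0618 by limma), with -0.43 in set A and -0.49 in set B. It passed in 4 of 21 alternative fits by limma. These were an array set block (adjusted p = 0.0356), quantile normalization (adjusted p = 0.0376), array weights (adjusted p = 0.00579) and the fit without labelled deficient array 2 (-0.62, adjusted p = 0.00142). It did not pass with the replicate number as a block (adjusted p = 0.0969), in set A alone (adjusted p = 0.582) or in set B alone (adjusted p = 0.0646).

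Fcgr3, the low-affinity activating receptor, read 9.37, 9.76, 9.14 and 9.08 in monocytes labelled deficient, against 9.69, 9.89, 9.46 and 9.59 in control monocytes. The groups overlapped through array 2, and the difference was -0.32 ± 0.16 (SE, n = 4 each; adjusted p = 0.297 by limma), with -0.22 in set A and -0.42 in set B. Fcgr2b and Fcgr3 encode nearly identical extracellular parts, and signal shared between their probe sets was not tested.

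Fcgr4, an activating receptor for IgG2a and IgG2b that neutrophils and Ly-6C(low) monocytes carry, read 4.86, 6.11, 6.22 and 6.18 in monocytes labelled deficient, against 4.56, 5.25, 5.42 and 6.13 in control monocytes. Labelled deficient array 1 stood apart from the other 3, and the groups overlapped. The difference was 0.50 ± 0.29 (SE, n = 4 each; adjusted p = 0.370 by limma), with 0.58 within set A and 0.42 within set B. It was 0.83 without labelled deficient array 1, 0.76 without control array 5 and 0.24 without control array 1, and did not pass in these fits. Its 95% interval ran from -0.11 to 1.11.

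The adaptors lay slightly lower. Fcer1g read 11.50, 11.83, 11.50 and 11.30 in monocytes labelled deficient, against 11.67, 11.83, 11.76 and 11.80 in control monocytes. Array 2 lay just above the highest control (11.832 against 11.828) and the other 3 lay below all controls. The difference was -0.23 ± 0.09 (SE, n = 4 each; adjusted p = 0.132 by limma), with -0.08 in set A and -0.38 in set B. It passed in 3 of 21 alternative fits by limma. These were set B alone (adjusted p = 0.0138), array weights (adjusted p = 0.0345) and the fit without labelled deficient array 2 (-0.33, adjusted p = 0.00503). It did not pass with the replicate number as a block (adjusted p = 0.169).

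Tyrobp read 11.83, 11.98, 11.80 and 11.67 in monocytes labelled deficient, against 12.01, 12.10, 12.04 and 12.08 in control monocytes. All 4 labelled deficient arrays lay below all controls, by a difference of -0.24 ± 0.08 (SE, n = 4 each), 1.18-fold lower, that did not pass (adjusted p = 0.0758 by limma). Within set A the difference was -0.15, and within set B -0.33. It passed in 4 of 21 alternative fits by limma. These were set B alone (adjusted p = 0.0466), an array set block (adjusted p = 0.0287), array weights (adjusted p = 0.0294) and the fit without labelled deficient array 2 (-0.29, adjusted p = 0.0185). It did not pass with the replicate number as a block (adjusted p = 0.120).

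**Figure D2:**
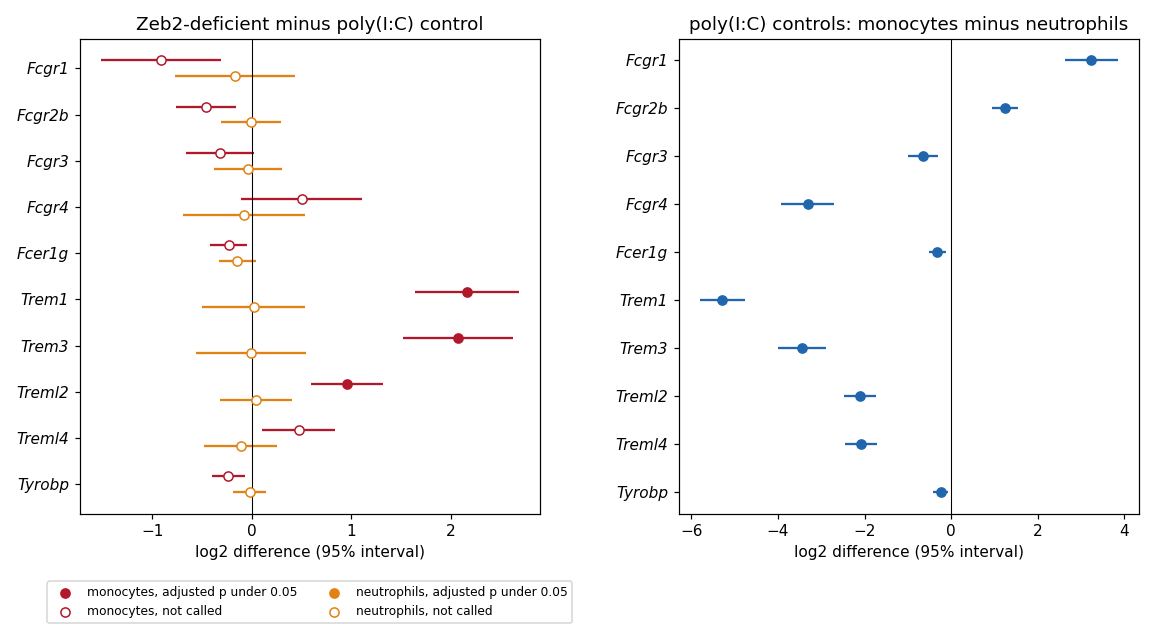
Left, log2 difference between arrays labelled Zeb2-deficient and poly(I:C) controls (x axis) for each gene in monocytes and in neutrophils, and right, between control monocytes and control neutrophils, with 95% intervals from limma. Filled points on the left are called: Trem1 at 2.16, Trem3 at 2.07 and Treml2 at 0.96, all in monocytes. On the right all 10 genes are called, 2 above 0 and 8 below. The points that involve Fcgr1 in neutrophils or Trem1 in control monocytes include arrays below the 40th percentile and are not exact differences.

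Marker genes of several cell types moved in the same monocyte arrays. Of 16 mature neutrophil markers 13 rose and 0 fell, with Retnlg at 5.55, and Ly6g, whose mean in control monocytes lay below the 40th percentile, also called. Their mean level per array was 9.25 to 10.18 in monocytes labelled deficient, against 6.62 to 7.75 in control monocytes and 11.73 to 11.81 in control neutrophils. All 16 exceeded the 40th percentile on some labelled deficient array, while Stfa3 and Il1f9 exceeded it on no control monocyte array. All 8 primary granule and promyelocyte markers rose. Their mean level was 8.64 to 10.79 in monocytes labelled deficient and 6.21 to 8.47 in control monocytes. In control neutrophils it was lower than in both, at 5.51 to 5.67. Of 12 Ly-6C(hi) monocyte markers 5 fell, Cx3cr1 and Csf1r the most (mean level of the list 9.0 to 10.06 against 10.05 to 10.27). Labelled deficient array 2 had the lowest neutrophil and granule means and the highest monocyte marker mean of its group. In bulk samples more cells of a type and more RNA per cell cannot be told apart, and the part of these markers in the receptor changes was not tested.

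**Figure D3:**
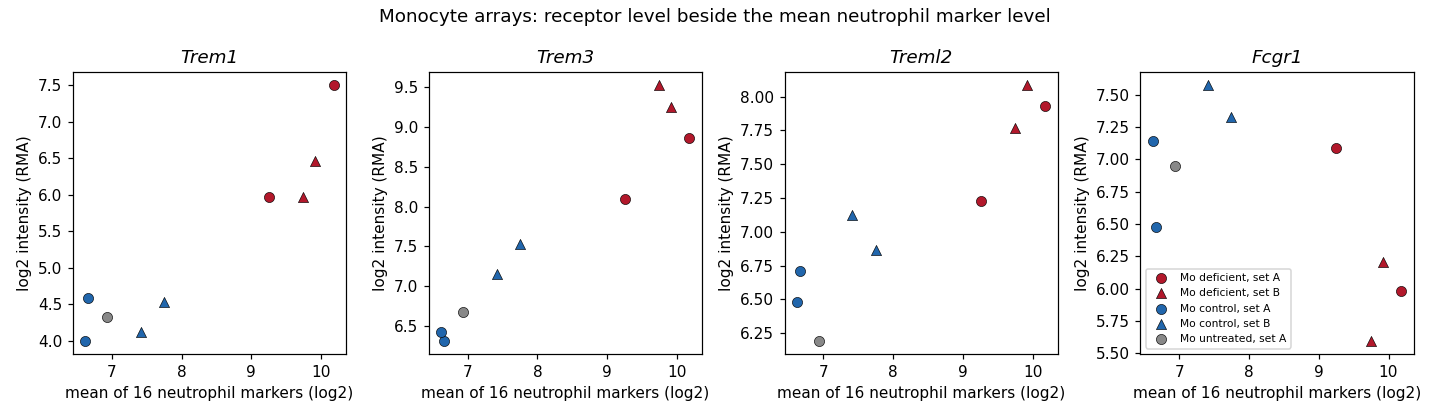
Log2 intensity of Trem1, Trem3, Treml2 and Fcgr1 (y axes) on the 9 monocyte arrays against the mean log2 level of 16 mature neutrophil markers on the same array (x axis). The labelled deficient arrays lie at marker means of 9.25 to 10.18 and the poly(I:C) controls at 6.62 to 7.75, so the groups form separate clusters, and labelled deficient array 2 lies at the low end of its cluster.

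Of the tested Ly-6C(low) monocyte markers without Treml4, 1 of 7 rose (Cd9, also high in neutrophils) and 1 fell (Nr4a1). Among macrophage markers 1 of 8 rose (Vcam1) and 1 fell (Mrc1), and among dendritic cell markers 2 of 8 fell (Cd209a and Flt3). Of mast cell and basophil markers 2 of 4 rose (Kit and Hdc) and 0 fell. Between the controls both were lower in monocytes than in neutrophils, Kit at -1.53 and Hdc at -5.33. The mean level of the list was 3.88 to 4.91 in monocytes labelled deficient, against 3.67 to 4.02 in control monocytes. Fcer1a, Ms4a2, Cpa3 and Cd200r3 exceeded the 40th percentile on no monocyte array. None of the 3 tested B cell markers and none of the 3 tested T and NK cell markers changed, and 1 of 3 erythroid markers rose (Tfrc).

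In neutrophils none of the 10 genes changed with the label, where 0.120% of all genes tested did (0.105% rose and 0.0149% fell). Without Fcgr1, which was dim here, the differences ran from -0.14 for Fcer1g to 0.04 for Treml2. The median of all 10 was -0.03 and that of all genes -0.01, and the unadjusted p was under 0.05 for 0 of the 10 and for 683 genes in all. Trem1 read 9.73, 9.54, 9.62 and 9.58 in neutrophils labelled deficient, against 9.83, 9.54, 9.62 and 9.42 in control neutrophils. The groups lay level, and the 95% interval of the difference ran from -0.50 to 0.54.

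Trem3 read 10.32, 10.17, 10.41 and 10.31 in neutrophils labelled deficient, against 10.37, 10.44, 10.22 and 10.21 in control neutrophils, with an interval of -0.56 to 0.55. Treml2 had an interval of -0.32 to 0.40, Treml4 of -0.48 to 0.26 and Fcgr4 of -0.69 to 0.54.

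Fcer1g was the only one of the 10 whose neutrophil arrays did not overlap, where 3.43% of all genes tested did not (1.84% lay above the controls and 1.59% below). It read 11.95, 11.95, 11.90 and 11.93 in neutrophils labelled deficient, against 12.12, 12.09, 12.04 and 12.07 in control neutrophils. The arrays of each group lay close together and the difference was small, -0.14 ± 0.09 (SE, n = 4 each; adjusted p = 0.999 by limma). Fcgr1 lay below the 40th percentile on all 8 of these arrays, so no fold is given for it.

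The test of the difference between the monocyte and the neutrophil change passed for Trem1 and Trem3, and both were larger in monocytes. Of all genes tested 2.68% passed, 2.17% in that direction and 0.515% in the other. The difference of changes was 2.14 ± 0.35 (SE, adjusted p = 0.00227 by limma) for Trem1 and 2.08 ± 0.37 (SE, adjusted p = 0.00417 by limma) for Trem3. Within sets A and B it was 2.49 and 1.80 for Trem1, with adjusted p = 0.0955 in set A alone, and 2.26 and 1.90 for Trem3. For Treml2 it was 0.92 ± 0.24 (SE), just short of the threshold (adjusted p = 0.0525 by limma). It passed in 8 of 29 alternative fits. Among them were the replicate number as a block (adjusted p = 0.0240), an array set block (adjusted p = 0.00901) and array weights (adjusted p = 0.00918). In set A alone it did not pass (adjusted p = 0.323). Fcgr2b was at -0.45 (adjusted p = 0.336 by limma). For Fcgr1, below the 40th percentile on all 8 neutrophil arrays of this test, no exact value is given. It did not pass over both sets (adjusted p = 0.462 by limma) and passed in set B alone (adjusted p = 0.0287). Without monocyte labelled deficient array 2, 4 of the genes passed, Trem1, Trem3, Treml2 and Fcgr2b.

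Between the controls all 10 genes differed by cell type, where 58.6% of all genes tested did, and none overlapped, where 56.2% of all genes did not (28.6% lay wholly above and 27.6% wholly below). Control monocytes were higher in Fcgr1 and Fcgr2b and lower in the other 8, with a median of -1.37 over the 10 and -0.08 over all genes. Of all genes tested 29.9% were higher in monocytes and 28.7% lower.

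Trem1 averaged 4.31 in control monocytes and 9.60 in control neutrophils, a difference of -5.29 ± 0.25 (SE, n = 4 each; adjusted p = 6.49e-12 by limma) that rests on 2 of 4 control monocyte arrays above the 40th percentile. Trem3 averaged 6.86 in control monocytes and 10.31 in control neutrophils (-3.45 ± 0.26 SE, 10.9-fold lower in monocytes). Treml2 and Treml4 were lower in control monocytes by similar amounts, -2.10 ± 0.17 and -2.08 ± 0.18 (SE, n = 4 each), 4.29-fold and 4.24-fold. These 4 TREM genes were thus all lower in control monocytes. Of other TREM genes tested, Trem2 was higher in control monocytes than in control neutrophils by 0.34 (adjusted p = 0.0310 by limma). The difference of Treml1 did not pass (-0.08, adjusted p = 0.560 by limma).

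The 3 Fc gamma receptor genes that are neighbours on chromosome 1 differed in direction. Fcgr2b averaged 8.35 in control monocytes and 7.11 in control neutrophils (1.25 ± 0.14 SE, adjusted p = 7.49e-07 by limma). Fcgr4 averaged 5.34 in control monocytes and 8.65 in control neutrophils (-3.31 ± 0.29 SE, 9.94-fold lower in monocytes). Fcgr3 averaged 9.66 in control monocytes and 10.31 in control neutrophils (-0.65 ± 0.16 SE, 1.57-fold lower).

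Fcgr1 averaged 7.13 in control monocytes and 3.89 in control neutrophils, and none of the 4 control neutrophil arrays exceeded the 40th percentile. Against the higher of that percentile and its own value on each neutrophil array, Fcgr1 was at least 6.51-fold higher in control monocytes. The bound itself was not tested, and limma's test of the values as read gave adjusted p = 2.40e-08. The adaptors differed little: Fcer1g was lower in control monocytes by -0.31 ± 0.09 (SE, adjusted p = 0.00572 by limma) and Tyrobp by -0.24 ± 0.08 (SE, adjusted p = 0.0126 by limma). The Tyrobp difference did not pass after quantile normalization (-0.15, adjusted p = 0.119 by limma) or in array set B alone (-0.18, adjusted p = 0.143).

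Ordered by mean, monocytes labelled deficient stood between control monocytes and both neutrophil groups for Fcgr1, Fcgr2b, Fcgr4, Trem1, Trem3, Treml2 and Treml4. Trem3 averaged 8.93 in monocytes labelled deficient, against 6.86 in control monocytes and 10.31 in control neutrophils. Trem1 averaged 6.48 in monocytes labelled deficient, against 4.31 in control monocytes and 9.60 in control neutrophils. For Fcgr3, Fcer1g and Tyrobp the monocytes labelled deficient were the lowest group, below control monocytes, while the neutrophils lay above. The arrays of monocytes labelled deficient and of control monocytes overlapped for Fcgr1, Fcgr2b, Fcgr3, Fcgr4, Fcer1g and Treml4, and those of the neutrophil groups overlapped for all but Fcer1g.

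The single untreated arrays are set beside the range of the poly(I:C) controls. In monocytes 7 of the 10 genes lay within the range of the 4 poly(I:C) controls and in neutrophils 8 did. The share of all genes within that range was not computed, so these counts do not set the 10 genes apart. Treml2 stood furthest out, with 6.48 to 7.12 in poly(I:C) control monocytes against 6.19 in the untreated monocyte array. With 1 untreated array per cell type these differences have no replicate check.

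The other genes of these pathways were described by 4 lists. Of 29 further receptors, a mixed list of TREM-related, adaptor-paired and inhibitory ones, 22 were tested. In monocytes labelled deficient 3 rose and 4 fell, against 5.11% and 2.44% of all genes. The median was -0.21 against -0.03 for all genes. Not every receptor in the list pairs with an adaptor, so its counts do not describe adaptor partners alone. Cd300lf, a mostly inhibitory CD300 receptor, rose by 1.18, Siglecf by 1.10 and Clec5a, a DAP12-paired lectin, by 1.04 ± 0.15 (SE, adjusted p = 2.39e-04 by limma). Clec7a, the beta-glucan receptor Dectin-1, fell by 0.84 ± 0.16 (SE, adjusted p = 0.00318 by limma), and the inhibitory receptor Pirb fell by 0.68, Lilrb4a by 0.60 and Cd300c2 by 0.56, named here after their values were seen. Clec5a averaged 8.20 in monocytes labelled deficient, 7.16 in control monocytes and 9.41 in neutrophils labelled deficient.

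In neutrophils 1 of the 22 changed, against 0.120% of all genes. Clec4n, the fungal receptor Dectin-2, which signals through the gamma chain of Fcer1g, rose by 1.80 ± 0.21 (SE, adjusted p = 4.63e-04 by limma) in neutrophils labelled deficient, and its change was smaller in monocytes by -1.89 ± 0.30 (SE, adjusted p = 0.00201 by limma). The changes of Cd300lf and Clec5a were larger in monocytes than in neutrophils, by 1.47 and 1.10, and that of Cd300c2 was lower by -0.91. Between the controls 2 of the 22 were higher in monocytes and 15 lower, against 29.9% and 28.7% of all genes. The C-type lectin Clec4d (-4.50), Cd300lf (-3.57), Cd33 (-3.35) and Cd300ld (-3.07) were the lowest in control monocytes relative to control neutrophils.

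Of 39 ITAM kinases and signalling proteins 34 were tested, and in monocytes labelled deficient 0 rose and 1 fell, against 5.11% and 2.44% of all genes. The one that fell was the adaptor Lat2 at -0.61 ± 0.18 (SE, adjusted p = 0.0455 by limma). With 30 of the 34 below 0, the median was -0.14 against -0.03 for all genes. In neutrophils none changed, against 0.120% of all genes. The difference of the changes passed for Nfatc2 at -0.79. Its change was -0.10 in monocytes and 0.69 in neutrophils, and neither passed. Control monocytes were higher than control neutrophils in 6, among them the ubiquitin ligase Cblb (2.84) and Lat2 (2.24), and lower in 12, among them the calcium channel Itpr2 (-1.43), against 29.9% and 28.7% of all genes.

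Of 12 inhibitory signalling genes 11 were tested, and in monocytes labelled deficient 1 rose (Cd5, at 0.54) and 1 fell (the lipid phosphatase Inppl1, at -0.49), while in neutrophils none changed. Between the controls 3 were higher in monocytes and 4 lower, Pag1 at -2.12 among them, a share near the 58.6% of all genes that differed. Of 14 other Fc receptors 4 were tested. Fcrl1 rose by 0.84 in monocytes labelled deficient (adjusted p = 0.0370 by limma) and was lower in control monocytes than in control neutrophils by -0.95. Trim21, a cytosolic antibody receptor, was higher in control monocytes by 0.57. Fitting only the arrays compared left 3 calls in the TREM-related list and 0 in each of the other 3 lists in monocytes, with 500 calls over all genes. Set A alone left 2 and 0, with 215 over all genes. Without labelled deficient array 2 the TREM-related list had 12 calls and the ITAM list 8, with 2001 over all genes, against 1010 with every array.

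**Figure D4:**
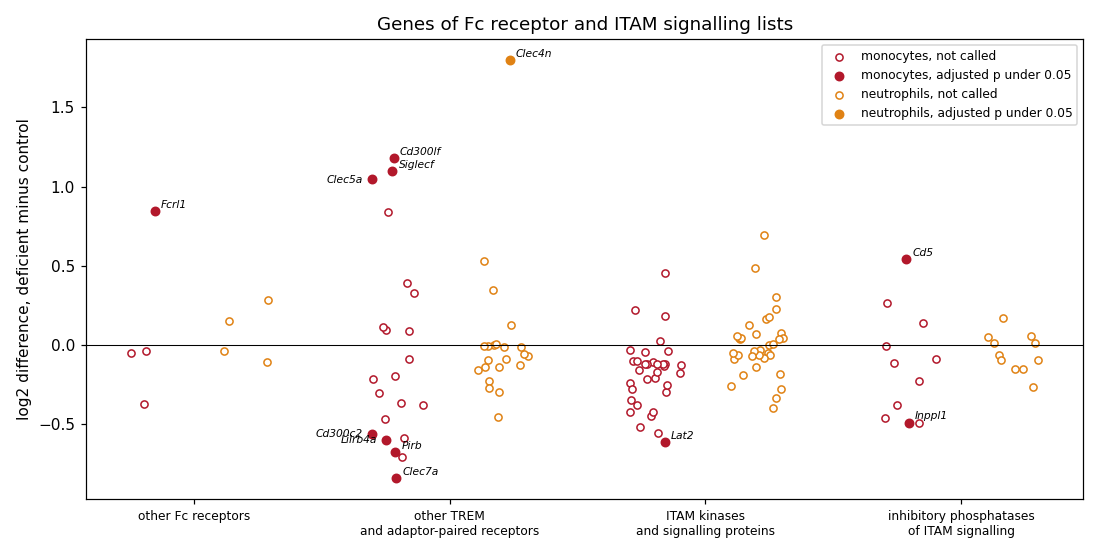
Log2 difference between arrays labelled Zeb2-deficient and poly(I:C) controls (y axis) for the tested genes of 4 lists (x axis), in monocytes and in neutrophils, with horizontal scatter added for legibility. Filled, named points are called; in neutrophils the only one is Clec4n at 1.80, and in monocytes Cd300lf is the highest at 1.18 and Clec7a the lowest at -0.84.

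The genes whose levels followed each receptor most closely over the 18 arrays were found by Pearson's correlation, given as a description since all points share the cell type split. Trem1 was most like Slc2a3 (r = 0.993), Mmp9 (0.992) and Alox5 (0.992), a glucose transporter, a gelatinase and the 5-lipoxygenase. Trem3 was most like Klf5, Slco4c1 and Wfdc21 (all 0.994), and Treml2 like Ston2 (0.989). These 7 genes were low in control monocytes, higher in monocytes labelled deficient and highest in both neutrophil groups. Slc2a3 averaged 7.10 in monocytes labelled deficient, against 4.79 in control monocytes and 10.4 in control neutrophils.

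Fcgr4 was most like Stat4 and Ccr1 (both 0.985), and Treml4 like Antxr2 (0.987). Fcgr1 was most like Ms4a4a (0.986) and Fcgr2b like Pros1 (0.981), genes that were highest in control monocytes. Ms4a4a averaged 7.18 in monocytes labelled deficient, against 8.72 in control monocytes. Fcgr3 was most like Tpm4 (0.960), Fcer1g like Tdrd7 (0.965) and Tyrobp like Ypel3 (0.974).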

How the data were processed

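Total RNA of sorted cells was hybridised to Affymetrix Mouse Gene 1.0 ST arrays and, per the labels' protocols, had been amplified first (Ovation PicoSL). The deposited values are log2 intensities per probe set, summarised with RMA per the submitters' processing notes, whose version is not given in the sources used here. Of 30177 probe sets 21789 had 1 gene symbol in the platform annotation, 1621 had several and 6767 none. The probe set with the highest mean stood for each of the 999 genes with several. Genes were tested if above the array's 40th percentile on at least 4 of 18 arrays. A group-means model over all 18 arrays was fitted with limma 3.58.1 in R 4.3.3 (eBayes with a variance trend, Benjamini-Hochberg adjustment over all genes tested). The steps were tested on simulated data. No pair of arrays held identical values, and the number of arrays limits the precision.

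Array sets A and B are the runs in which the samples are listed, and the labels name no batch. Deviations from the group means correlated at 0.127 to 0.348 for monocyte arrays of both genotypes in the same set with different numbers, and at -0.344 to -0.240 between sets. Same-numbered arrays of the 2 genotypes correlated at 0.290 to 0.428 in monocytes (3 pairs) and at 0.183 to 0.378 in neutrophils (3 pairs), so a fit with the replicate number as a block was run.

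Up to 4 called genes per pathway list and 2 per marker list, those with the largest change, were named in each comparison. The members and lists were chosen with earlier results of these data known. Alternatives were other filters, probe set rules, normalization, weights, blocks, array sets, left-out arrays and exact permutation tests.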

Additional observations from a re-analysis of the deposited data

Results flagged for a closer look

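Fcgr4 in monocytes labelled Zeb2-deficient had 1 array far from the other 3. Array 1 read 4.86 and the others 6.11 to 6.22, a gap of 0.921 of the group's range. About 1 in 20 groups of 4 is flagged in this way by chance, and Fcgr4 itself did not pass in monocytes.

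The changes of 2 receptors differed between the cell types by a test of the difference itself. The monocyte change exceeded the neutrophil change by 2.14 for Trem1 and by 2.08 for Trem3 on the log2 scale.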

How the results depend on the processing

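Trem1, Trem3 and Treml2 passed in monocytes in every alternative run other than the exact permutation test adjusted over all genes, which can give no p below 0.0286 before adjustment and called 0 of the 10 genes in monocytes and 0 between the controls. Of the 10 genes, 7 passed in monocytes with array weights, 5 after quantile normalization, 6 with the array set as a block and 6 in set B alone. Leaving out 1 array gave 3 to 7 in monocytes (7 without labelled deficient array 2), 0 to 0 in neutrophils, 2 to 4 for the difference of changes and 10 to 10 between the controls. The unadjusted exact permutation test passed Trem1, Trem3, Treml2 and Tyrobp in monocytes and 1, Fcer1g, in neutrophils. The difference of changes passed for 1 gene in set A alone and 4 in set B alone, and its exact permutation test was not run. All-gene counts of that difference in the alternative fits are not given here, so these counts do not set the 10 genes apart. With the replicate number as a block, 3 genes passed in monocytes, 0 in neutrophils, 10 between the controls and 3 for the difference of changes, where Treml2 was added (adjusted p = 0.0240 by limma). Over all genes, the 1010 monocyte calls became 500 with only the arrays compared, 1613 with array weights, 1086 after quantile normalization and 1516 with the set as a block. They became 215 in set A, 1724 in set B, 2001 without labelled deficient array 2, and 621 and 620 without arrays 3 and 4. No value that passed in the report's fit changed sign, while 30 of 230 neutrophil values and 3 of 290 differences of changes did, the 3 being Fcgr1, Fcgr3 and Fcer1g in set A alone. The cause of these shifts was not tested.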
